A study of Rattus norvegicus with 8 samples.

Results

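Cytochrome P450 enzymes of families 1 to 3 were followed through their array probes in the livers of weanling rats. The members were the genes whose deposited name begins with Cyp1a, Cyp1b, Cyp2 and a letter, or Cyp3a, read by probes other than controls. There were 43 such gene names of 26456 on the array, with 56 of its 30367 probes. Only probes with a signal clearly over background in 4 or more of the 8 livers were tested, and 43 probes of 33 gene names met this. The other 13 probes were not tested, and they were a probe each of Cyp1b1, Cyp2c11, Cyp2c13, Cyp2g1, Cyp2j10, Cyp2j16, Cyp2u1, Cyp2w1 and Cyp3a9, both of Cyp2b12, 1 of 2 of Cyp2b15 and 1 of 3 of Cyp2c7. No probe carried the name Cyp2b1. Where a gene had several probes they are numbered here in the order of their identifiers.

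The livers came from 21-day-old Wistar rats of 2 groups. The MDD group (methyl donor deficiency) held 4 pups, 2 male and 2 female, whose dams ate food lacking vitamin B12 and folates from a month before pregnancy until the pups were weaned. The control group held 4 pups, 1 male and 3 female, of dams on standard food over the same time. The sources used here do not name the dams or litters of the pups, so a p-value sets a difference against the variation among 8 pups that may share litters. In bulk liver fewer cells of a type and less RNA per cell cannot be told apart. Each of 4 two-colour Agilent arrays on 1 slide held an MDD liver and a control liver. Array 1 held MDD liver 3 and control liver 1, array 2 MDD liver 1 and control liver 3, array 3 MDD liver 4 and control liver 2, and array 4 MDD liver 2 and control liver 4.

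P450 enzymes are haem proteins of the endoplasmic reticulum that insert an oxygen atom into their substrates, with electrons passed on by cytochrome P450 oxidoreductase and cytochrome b5. Families 1 to 3 clear drugs and other foreign compounds, and they also oxidise steroids, retinoids, vitamin D and arachidonic acid. The aryl hydrocarbon receptor controls the 1A genes, the receptors CAR and PXR control many 2B, 2C and 3A genes, and in adult rats the pattern of growth hormone secretion gives several 2C and 3A genes a male or a female bias.

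Levels are given as log2 normalized intensity, and differences as MDD minus control on the log2 scale with the SE of the fit (n = 4 livers in each group). Adjusted p-values are from limma with Benjamini-Hochberg adjustment over all 16730 probes tested, and a probe was called at an adjusted p under 0.05. Median spot signals were 152.5 to 299 over backgrounds of 33 to 58, and no spot was saturated. Hepatocyte markers read high in all livers, and 4 of 6 of them fell in MDD livers, with 6.47% of all probes tested called lower. Their median difference was -0.74, and their summed level was 19.65 to 20.24 in MDD livers and 20.24 to 20.62 in control livers. Their part in the P450 differences was not tested. None of 5 exocrine pancreas markers passed the filter (0 tested), and 0 of 6 Kupffer cell, 0 of 4 endothelial, 0 of 4 cholangiocyte and 0 of 4 erythroid markers were called, with 1 of 6 stellate cell markers lower. Of all probes tested 11% were called. Of 3 skeletal muscle markers tested 1 was called, Tnnc2, a troponin of fast muscle, higher by 2.85 (limma adjusted p = 0.000465). It read 10.93, 10.24, 11.43 and 10.36 in MDD livers, against 8.31, 7.79, 8.0 and 7.46 in control livers. Ckm and Tnnt3 were high in MDD liver 3 (10.22 and 9.66), while the other MDD livers read 6.11 to 6.63 and control livers 6.11 to 6.98 on them. The 6 muscle genes together had a summed level of 13.08 in MDD liver 3, against 10.84 to 11.23 in the other MDD livers and 9.49 to 10.04 in control livers.

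MDD liver 1 stood apart over the whole array, the P450 genes included. It held the lowest of the 8 values in 18 of the 43 tested member probes, while it did so in 27.1% of all probes with 8 values. It held the highest value in 2 member probes and in 28.1% of all probes. MDD liver 3 was lowest in 7 member probes and in 9.75% of all probes, and control liver 4 in 10 and in 17.1% of all probes. Differences between the diets that rest on MDD liver 1 are therefore given with and without it.

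Some members resemble each other in sequence, which bears on which genes their probes can tell apart. Of all pairs of members of different genes, 1 shared an identical stretch of 20 bases or more. These were the probes of Cyp2d1 and Cyp2d5, neighbours on chromosome 7, with 55 bases in common. The last 30 bases of each 60-base probe, 5′ to 3′, are shown with the common stretch in capitals:
Cyp2d1: CTGAGCCACGTTTAATAAACCAGTCTTttg
Cyp2d5: GAGCCACGTTTAATAAACCAGTCTTgaggc
The values of these genes therefore cannot be told apart. Their positions in the rn4 build, minus strand, are chr7:120769703-120769762 and chr7:120760436-120760495.

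The probes of the called 2D genes, and those of the pair of 2J genes with opposite differences, had only short stretches in common. Below are 30 bases of each, with the longest stretch that the pair has in common in capitals, to show how little is shared:
Cyp2d3: cctcgatccttacACCCTcctgaacaaggc
Cyp2d2: tttgagtatgaggACCCTttcttcaacagg
Cyp2j4, probe 2: aagttaggaggaCAATGGtgattcttccta
Cyp2j3, probe 1: ttctgcctttctCAATGGgaaagcgagcat
The Cyp2d3 and Cyp2d2 probes shared at most 5 bases in a row, and the 4 pairings of Cyp2j4 and Cyp2j3 probes at most 6. They lie in rn4 at chr7:120781308-120781367 and chr7:120798606-120798665, and at chr5:116702737-116702796 and chr5:116744736-116744795. Probes were compared only with other probes, so whether a probe also binds the transcript of a related gene was not tested.

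Of the retinoid-oxidising 2C genes that fell, Cyp2c7 probe 2 and the Cyp2c22 probe shared at most 7 bases in a row (capitals):
Cyp2c7, probe 2: ttacagaactttAACCTGAaatctctggtt
Cyp2c22: tgaatttaccatggacAACCTGAtagtcac
In rn4 the Cyp2c7 probe is placed on an unordered part of chromosome 7 and the Cyp2c22 probe at chr1:245310265-245311185, a span wider than the probe. No genome of that build was used here, so exon or UTR is not stated for any probe. Whether these probes also bind transcripts of other 2C genes was not tested.

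The diet comparison asked how the deficiency of the dams changed these genes in the livers of their pups. Cyp2c7, Cyp2c22, Cyp1a2, Cyp2d2, Cyp2f4 and Cyp2r1 fell in MDD livers, by 0.45 to 1.37 on the log2 scale, and Cyp2d3 and Cyp2j4 rose by 0.72 to 0.81. Of the 43 tested member probes 3 (of 2 genes) were called higher, against 4.56% of all probes tested, and 7 (of 6 genes) were called lower, against 6.47% of all probes. Together 10 of these probes (23.3%), of 8 genes, were called, with 11% of all probes called. The median difference of the tested member probes was -0.14 and that of all probes 0.01, while the median size of a difference, without its sign, was 0.38 in the members and 0.14 in all probes. At an unadjusted p under 0.05 there were 22 of 43 member probes, 9 higher and 13 lower, with 27.8% of all probes. In 6 member probes every MDD liver lay below every control liver, which held for 5.9% of all probes. In 0 member probes did every MDD liver lie above every control liver, with 5.48% of all probes doing so.

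**Figure D1:**
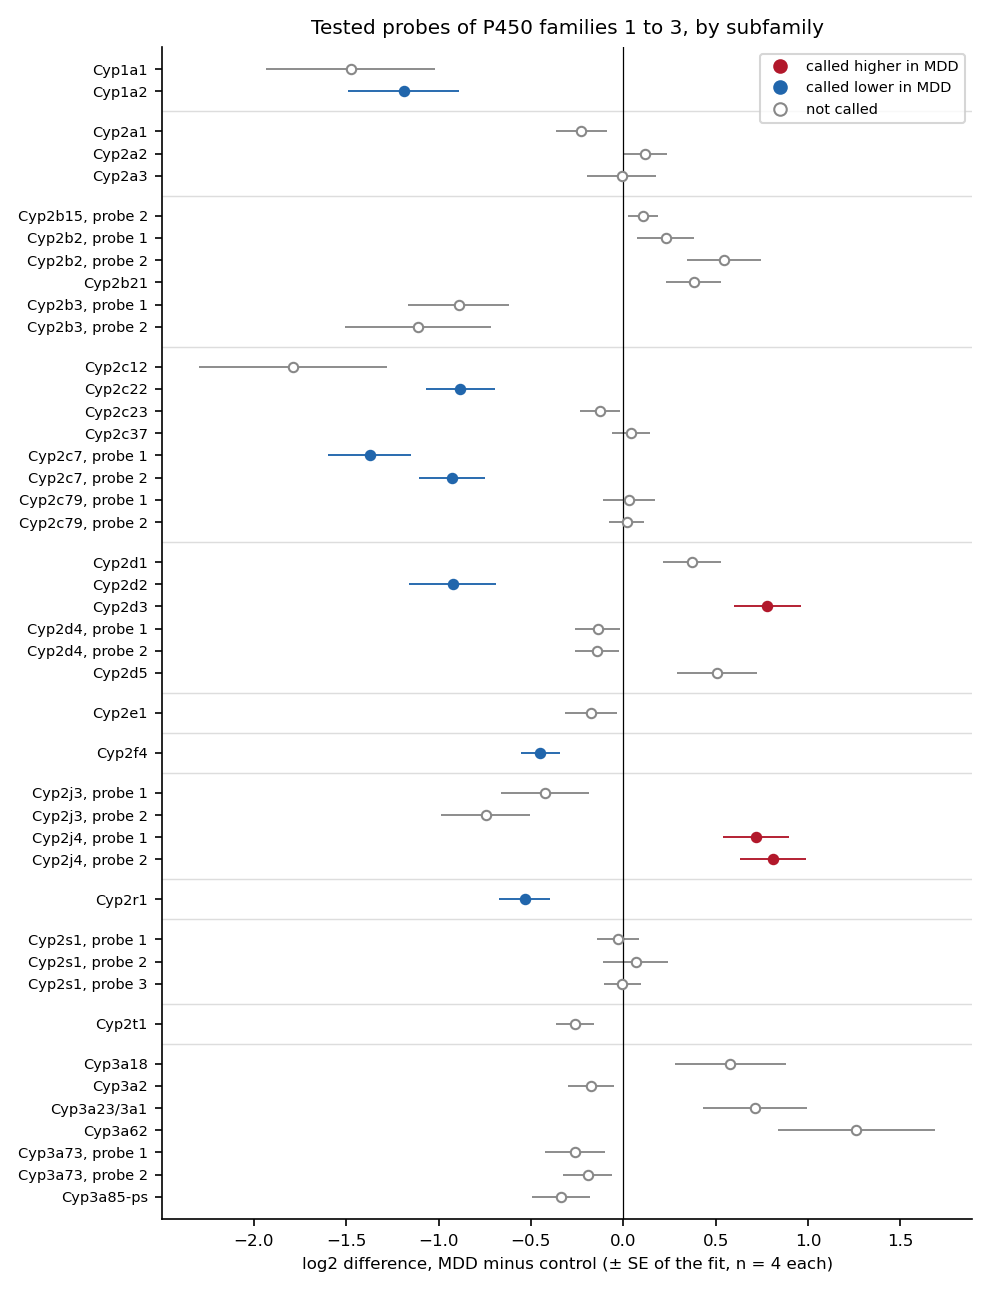
Log2 difference, MDD minus control, of the 43 tested probes (points) with the SE of the fit (bars, n = 4 livers in each group), grouped by subfamily from 1A at the top to 3A at the bottom. Filled points are the 3 probes called higher and the 7 called lower in MDD livers, and members of the 2B, 2D, 2J and 3A subfamilies lie on both sides of 0.

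Which member probes were called depended on single livers. The share of all probes called moved in the same fits, so it is given beside each count. Without MDD liver 2 there were 3 probes higher and 15 lower, with 23.3% of all probes called. Without MDD liver 3 there were 3 and 7 (11.1% of all probes), and without MDD liver 4 there were 0 and 1 (3.31%). Without control liver 1 the counts were 0 and 3 (4.64%), without control liver 2 they were 1 and 3 (3.92%), without control liver 3 they were 0 and 0 (2.37%; 8 and 8 at an unadjusted p under 0.05 in limma), and without control liver 4 they were 0 and 8 (7.11%). Without MDD liver 1 there were 6 higher and 3 lower, with 9.75% of all probes called: Cyp2d3 and both Cyp2j4 probes were joined by probe 2 of Cyp2b2, Cyp2b21 and Cyp3a62, and both called Cyp2c7 probes by Cyp2c12. Cyp1a2, Cyp2c22, Cyp2d2, Cyp2f4 and Cyp2r1 were not called without that liver, with differences of -0.91, -0.79, -0.65, -0.35 and -0.36. Of the 10 called probes 5 differed in the same direction on all 4 arrays, and the 5 others on 3 arrays.

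In the 1A subfamily both genes read lower in MDD livers, and Cyp1a2 was called. Cyp1a2, which oxidises caffeine and aromatic amines, read 12.60, 12.79, 14.36 and 13.42 in MDD livers 1 to 4, against 14.72, 14.67, 14.90 and 13.63 in control livers 1 to 4. MDD liver 3 and control liver 4 made the groups overlap. The difference was -1.19 ± 0.30, or 2.28-fold lower (limma adjusted p = 0.0415), and it was -0.36, -2.30, -1.26 and -0.84 on arrays 1 to 4.

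Cyp1a1, which oxidises polycyclic aromatic hydrocarbons and is strongly induced through the aryl hydrocarbon receptor, read 6.87, 7.92, 8.14 and 7.31 in MDD livers, against 9.38, 9.75, 9.59 and 7.41 in control livers. Control livers 1 to 3 lay well above all MDD livers and control liver 4 lay among them. The difference of -1.48 ± 0.46 was not called (limma adjusted p = 0.0734), and it was -0.91 and not called without MDD liver 1. Without control liver 4 it was -2.14 and without MDD liver 2 -1.92, both called, and over all fits that left out a liver or an array it lay between -2.28 and -0.67. The Cyp1a1 probe was printed in 10 spots, with a mean SD between spots of 0.24, below the SD between control livers of 1.09. Cyp1b1, a relative found mostly outside the liver, read 6.94, 6.25, 6.19 and 6.64 in MDD livers, against 6.23, 6.62, 6.76 and 6.13 in control livers. It was well above background in 1 MDD liver and in 0 control livers, and was not tested. The probes of Cyp1a2 and Cyp1a1 lie in rn4 at chr8:61439236-61439295 and chr8:61468133-61468192.

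The 2C subfamily held 3 of the 7 called falls among its 8 tested probes, with a median of -0.51. These 3 probes were of 2 of its 6 tested genes, and 6.47% of all probes tested were called lower. Cyp2c7, an enzyme that oxidises retinoic acid in rat liver, fell on both tested probes. Probe 1 read 7.62, 7.39, 7.28 and 8.18 in MDD livers, against 8.35, 9.77, 9.28 and 8.56 in control livers. All 4 MDD livers were below all 4 control livers, although MDD liver 4 came close to control liver 1. The difference was -1.37 ± 0.22, 2.59-fold lower (limma adjusted p = 0.00846), and on arrays 1 to 4 it was -1.07, -1.66, -1.59 and -1.16.

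Probe 2 of Cyp2c7 read 7.0, 6.76, 6.78 and 7.40 in MDD livers, against 7.42, 8.57, 8.03 and 7.62 in control livers, again without overlap. Its difference was -0.93 ± 0.18 (limma adjusted p = 0.0149), and 2 of the 4 MDD livers were well above background on it. Probe 3 was well above background in no MDD liver and in 3 of 4 control livers. It was at least 1.4-fold lower in MDD livers, with measured means of 6.44 and 6.97. Over the 12 fits that left out a liver or an array, probe 1 kept its call in 11 and probe 2 in 9. Both probes lost their calls when spots with high background were kept. Their differences were then -1.005 and -0.639 (limma adjusted p = 0.08205 and 0.111). Without the array block in the fit both also lost their calls (limma adjusted p = 0.0745 and 0.1145).

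Cyp2c22, which in rats also oxidises retinoic acid, read 8.76, 9.30, 9.54 and 9.60 in MDD livers, against 9.28, 10.42, 10.43 and 10.60 in control livers. Control liver 1, a male, read below 3 of the MDD livers, and the other control livers above all of them. Its difference was -0.88 ± 0.19 (limma adjusted p = 0.0213), and within arrays it was 0.26, -1.67, -0.82 and -1.30, so array 1 went the other way.

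Cyp2c12, a steroid sulfate hydroxylase with a strong female bias in adult rats, had the widest difference of all tested member probes without being called. It read 8.40, 11.23, 10.11 and 11.73 in MDD livers, against 12.17, 12.57, 12.09 and 11.78 in control livers. All MDD livers were lower, the 2 MDD females (livers 1 and 3) more so than the 2 MDD males. The difference was -1.79 ± 0.51 (limma adjusted p = 0.0576). It was -1.04 and called without MDD liver 1, and also called without MDD liver 2 or control liver 4.

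The male-biased members of the subfamily were dim at this age. Cyp2c11, the main male P450 of adult rat liver, was not well above background in any liver (6.50 to 6.61 in MDD livers, 6.47 to 6.74 in control livers). Cyp2c13, also male-specific in adults, read 6.82, 8.10, 6.48 and 7.66 in MDD livers, against 6.63, 6.64, 6.70 and 6.50 in control livers. The 2 livers well above background, MDD livers 2 and 4, were the MDD males, and the control male was not among them. The mean of the MDD livers was at least 1.47-fold higher, and the probe was not tested.

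Cyp2c23, an epoxygenase of arachidonic acid, read 16.23, 16.40, 15.76 and 15.97 in MDD livers, against 15.99, 16.19, 16.32 and 16.39 in control livers. The ranges overlapped, with MDD livers on either side of the controls (-0.13 ± 0.11, limma adjusted p = 0.487). Cyp2c37 and the 2 Cyp2c79 probes differed by 0.02 to 0.04.

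**Figure D2:**
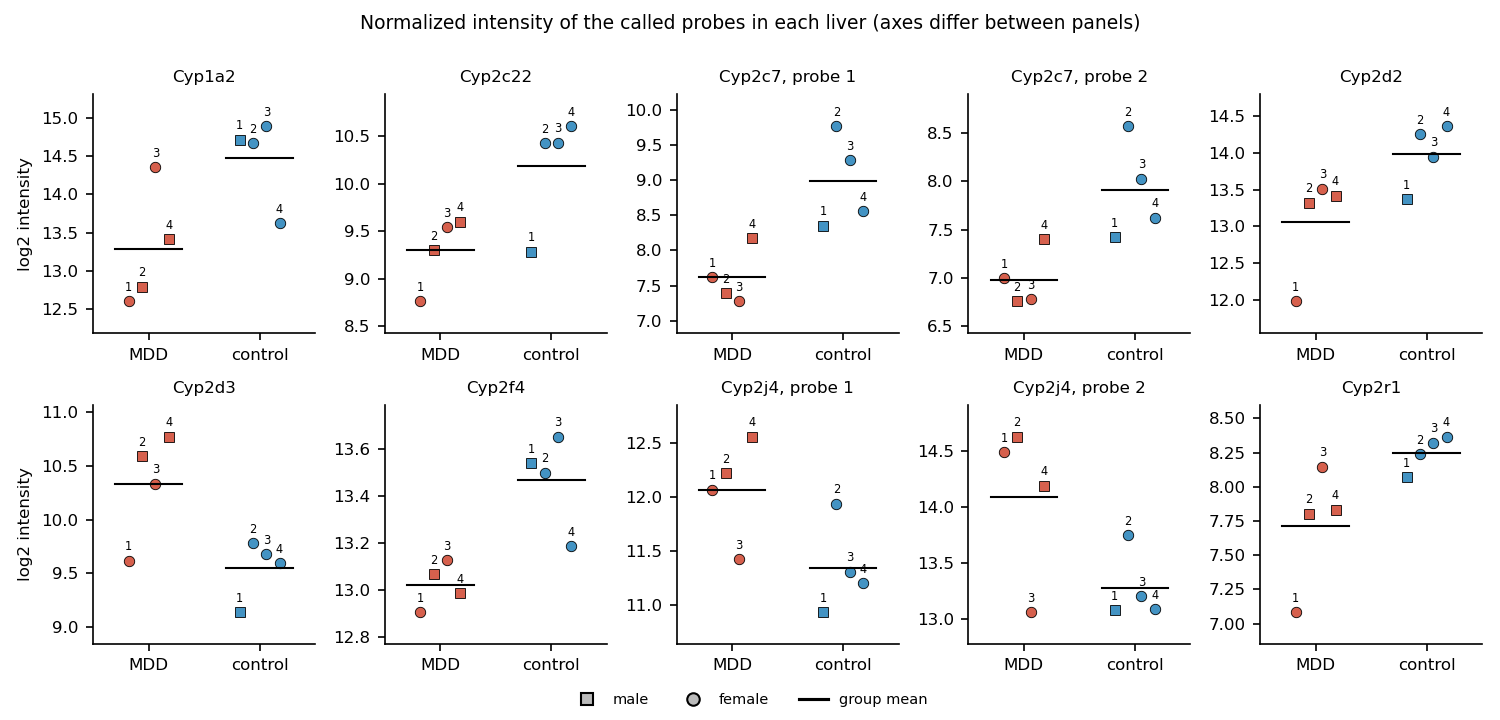
Normalized log2 intensity of the 10 called probes in each MDD liver (left of each panel) and each control liver (right), with the replicate number above each point, squares for males, circles for females and a line at the group mean. The groups do not overlap for the Cyp2c7 probes and Cyp2f4, and MDD liver 1 is the lowest liver for Cyp1a2, Cyp2c22, Cyp2d2, Cyp2f4 and Cyp2r1.

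Neighbouring 2D genes moved in opposite directions. Cyp2d3 read 9.62, 10.59, 10.34 and 10.77 in MDD livers, against 9.14, 9.78, 9.68 and 9.60 in control livers. MDD livers 2 to 4 were above all controls and MDD liver 1 lay among them. It was 1.72-fold higher, a difference of 0.78 ± 0.18 (limma adjusted p = 0.0321), and without MDD liver 1 the difference was 1.02. Cyp2d3 kept its call in 4 of the 12 fits that left out a liver or an array.

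Cyp2d2, the debrisoquine hydroxylase of the rat, read 11.98, 13.32, 13.51 and 13.41 in MDD livers, against 13.37, 14.25, 13.94 and 14.36 in control livers. MDD liver 1 was far below the rest, and control liver 1 lay among the other MDD livers. It was 1.90-fold lower (-0.92 ± 0.23, limma adjusted p = 0.0414), with 0.14, -1.96, -0.84 and -1.04 on arrays 1 to 4. The starts of the Cyp2d3 and Cyp2d2 probes lie 17298 bases apart in rn4.

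The Cyp2d1 probe read 16.68, 16.74, 16.74 and 16.33 in MDD livers, against 16.21, 16.85, 16.11 and 15.82 in control livers, with overlap. It differed by 0.37 ± 0.16 (limma adjusted p = 0.165) and its near copy, the Cyp2d5 probe, by 0.51 ± 0.22 (limma adjusted p = 0.167). The 2 probes of Cyp2d4, best known from brain, differed by -0.14 each.

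The 2J genes, whose products oxidise arachidonic acid and other fatty acids, also split. Probe 1 of Cyp2j4 read 12.06, 12.22, 11.42 and 12.56 in MDD livers, against 10.94, 11.93, 11.31 and 11.20 in control livers. Probe 2 read 14.49, 14.63, 13.06 and 14.19 in MDD livers, against 13.08, 13.75, 13.21 and 13.09 in control livers. On both probes MDD livers 1, 2 and 4 lay above every control. MDD liver 3 lay among the controls on probe 1 and just under them on probe 2. The differences were 0.72 ± 0.18 (limma adjusted p = 0.0392) and 0.81 ± 0.18 (limma adjusted p = 0.0263). On array 1, which held MDD liver 3, they were 0.49 and -0.02, and on arrays 2 to 4 between 0.44 and 1.54. Probe 1 kept its call in 4 of the 12 fits that left out a liver or an array, and probe 2 in 5.

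Cyp2j3 lies next to it, its nearest probe 41678 bases on from that of Cyp2j4. Probe 1 of Cyp2j3 read 10.16, 10.39, 9.56 and 10.87 in MDD livers, against 10.05, 11.29, 11.01 and 10.32 in control livers, a difference of -0.42 ± 0.24 (limma adjusted p = 0.287). Probe 2 differed by -0.75 ± 0.24 (limma adjusted p = 0.0818). Neither was called, and the groups overlapped on both. Cyp2j10 and Cyp2j16 were not measured well enough to be tested.

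**Figure D3:**
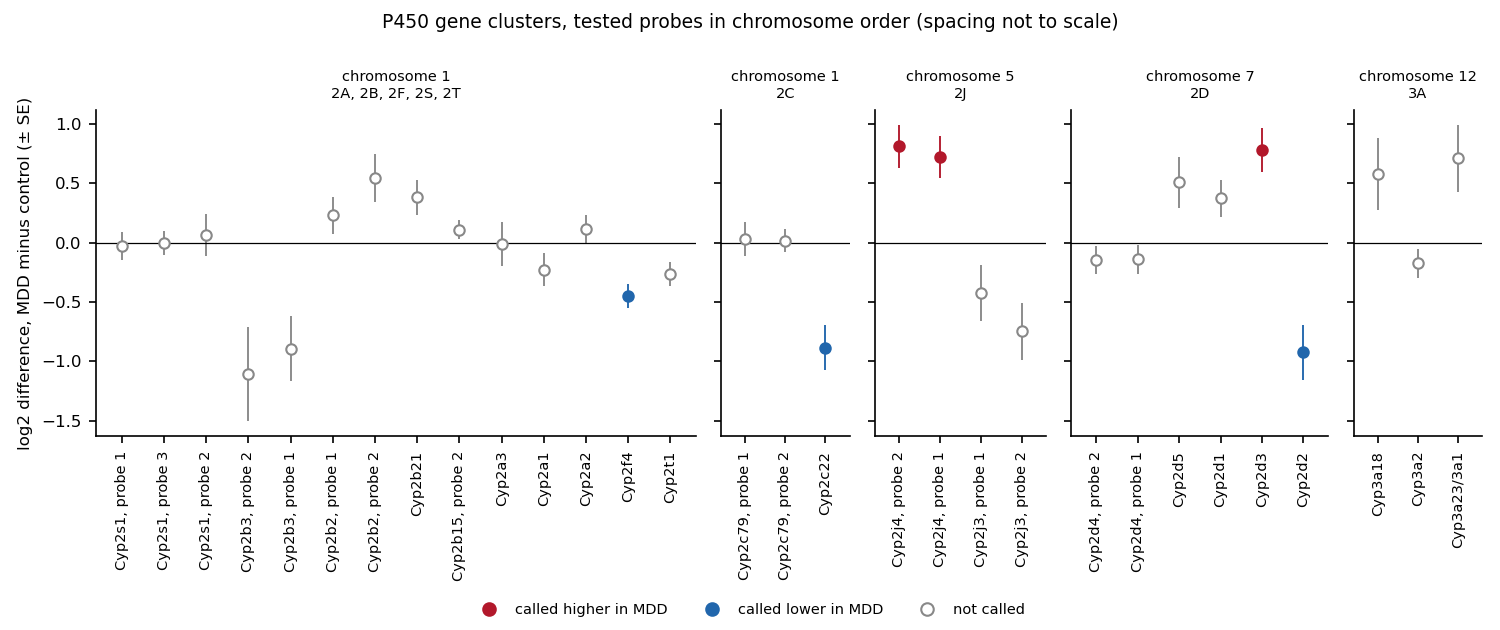
Log2 difference, MDD minus control (points, with the SE of the fit as bars, n = 4 livers in each group), of tested probes in the order of their rn4 positions, for runs of at least 3 probes with neighbours under 1 Mb apart. Spacing is not to scale; in the 2D run Cyp2d3 is called higher beside Cyp2d2 called lower, and in the 2J run Cyp2j4 lies above 0 and Cyp2j3 below it.

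In the 2B subfamily 0 of 6 tested probes were called, with 11% of all probes called, and its genes lay on both sides. Cyp2b3, a 2B gene that phenobarbital does not induce, read 12.68, 13.88, 13.96 and 13.85 on probe 1 in MDD livers, against 14.06, 14.79, 14.91 and 14.18 in control livers. All MDD livers were below all controls, liver 1 by the widest margin. The difference was -0.89 ± 0.27 (limma adjusted p = 0.0716), on probe 2 it was -1.11 ± 0.40, and without MDD liver 1 these were -0.51 and -0.52. Probe 2 did not overlap between the groups either, with 10.99 to 13.14 in MDD livers and 13.18 to 14.09 in control livers.

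Cyp2b2, the gene that phenobarbital induces through CAR, read 12.78, 13.67, 13.38 and 13.88 on probe 2 in MDD livers, against 13.27, 12.71, 12.72 and 12.82 in control livers. The 3 highest were MDD livers 2, 3 and 4, while MDD liver 1 read like the control females. The difference was 0.54 ± 0.20 (limma adjusted p = 0.119), and on probe 1 it was 0.23 ± 0.15 (limma adjusted p = 0.37). Cyp2b21 differed by 0.38 and the tested Cyp2b15 probe by 0.11.

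The 2A genes, steroid hydroxylases next to the 2B genes on chromosome 1, did not pass the test. Cyp2a1 read 14.18, 14.29, 15.08 and 14.64 in MDD livers, against 14.69, 14.86, 14.99 and 14.57 in control livers, and differed by -0.23 ± 0.14 (limma adjusted p = 0.325). Cyp2a2 read 11.07, 10.80, 11.32 and 11.57 in MDD livers, against 11.03, 11.24, 11.25 and 10.78 in control livers, and differed by 0.12 ± 0.12 (limma adjusted p = 0.574). In Cyp2a1, MDD livers 1 and 2 lay below every control and MDD liver 3 above every control. In Cyp2a2, MDD livers 3 and 4 lay above every control, and the others did not. The ranges overlapped in both genes and in Cyp2a3.

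Cyp2f4, known from the lung where it activates naphthalene, fell by a small amount with little spread. It read 12.91, 13.07, 13.13 and 12.99 in MDD livers, against 13.54, 13.50, 13.65 and 13.19 in control livers, without overlap. The difference was -0.45 ± 0.11, 1.36-fold lower (limma adjusted p = 0.032), and it was negative on all 4 arrays (-0.41, -0.75, -0.52 and -0.12). Cyp2f4 kept its call in 4 of the 12 fits that left out a liver or an array. Its probe lies at chr1:82204527-82204586 in rn4.

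Cyp2r1, a vitamin D hydroxylase that makes the circulating form of the vitamin, read 7.08, 7.80, 8.15 and 7.83 in MDD livers, against 8.07, 8.24, 8.32 and 8.37 in control livers. MDD liver 1 was the lowest by far, MDD liver 3 lay among the controls, and 1 of the 4 MDD livers was not well above background. The difference was -0.53 ± 0.14 (limma adjusted p = 0.0439). Its probe lies at chr1:172593244-172593303 in rn4.

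Cyp2e1, which oxidises ethanol and acetone, read 16.20, 17.09, 16.78 and 16.90 in MDD livers, against 16.87, 16.91, 16.92 and 16.97 in control livers. The control livers lay close together (SD 0.041), MDD liver 1 was below them all and the other MDD livers were around them. The difference was -0.18 ± 0.14 (limma adjusted p = 0.462), and without MDD liver 1 it was 0.02. Without MDD liver 2 it was -0.36 and called. Cyp2t1 read 11.00, 10.76, 10.88 and 10.83 in MDD livers, against 11.23, 11.48, 11.09 and 10.71 in control livers (-0.26 ± 0.10, limma adjusted p = 0.137). The 3 probes of Cyp2s1, a gene of epithelia, differed by -0.03 to 0.07. Its brightest probe read 8.19, 8.24, 8.08 and 7.87 in MDD livers, against 8.36, 8.11, 8.32 and 7.71 in control livers, with full overlap. The probe with the smallest p, probe 2, read 8.24, 7.07, 7.50 and 7.42 in MDD livers, against 7.68, 7.36, 7.87 and 7.05 in control livers, also with overlap.

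Of the 3A subfamily, the enzymes that clear the widest range of drugs, 0 of 7 tested probes were called, with 11% of all probes called. Cyp3a2 read 16.56, 16.91, 16.19 and 16.70 in MDD livers, against 16.91, 16.68, 16.65 and 16.82 in control livers, and differed by -0.17 ± 0.12 (limma adjusted p = 0.397). MDD liver 3 was the lowest and the rest overlapped. Cyp3a62, best known from the intestine, read 6.99, 9.50, 8.97 and 9.32 in MDD livers, against 8.20, 7.40, 7.02 and 7.11 in control livers. MDD livers 2 to 4 were above all controls and MDD liver 1 below them. The difference was 1.26 ± 0.43 (limma adjusted p = 0.0951), and without MDD liver 1 it was 1.90 and called.

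The probe labelled Cyp3a23/3a1, a gene that PXR ligands induce, read 15.10, 15.04, 13.60 and 14.94 in MDD livers, against 13.93, 14.22, 14.55 and 13.13 in control livers. Here MDD liver 3, not liver 1, was the low one, and the other 3 MDD livers were above all controls. The difference was 0.71 ± 0.28 (limma adjusted p = 0.141), and without MDD liver 3 it was 1.01 and called. Cyp3a18, male-biased in adults, read 10.73, 11.53, 10.08 and 11.36 in MDD livers, against 10.92, 10.53, 10.39 and 9.55 in control livers (0.58 ± 0.30, limma adjusted p = 0.253). The 3 highest livers were the 3 males. The 2 Cyp3a73 probes and the pseudogene Cyp3a85-ps differed by -0.34 to -0.19, and Cyp3a9, female-biased in adults, was not well above background in any liver (6.27 to 6.62 in MDD livers, 6.23 to 6.54 in control livers).

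**Figure D4:**
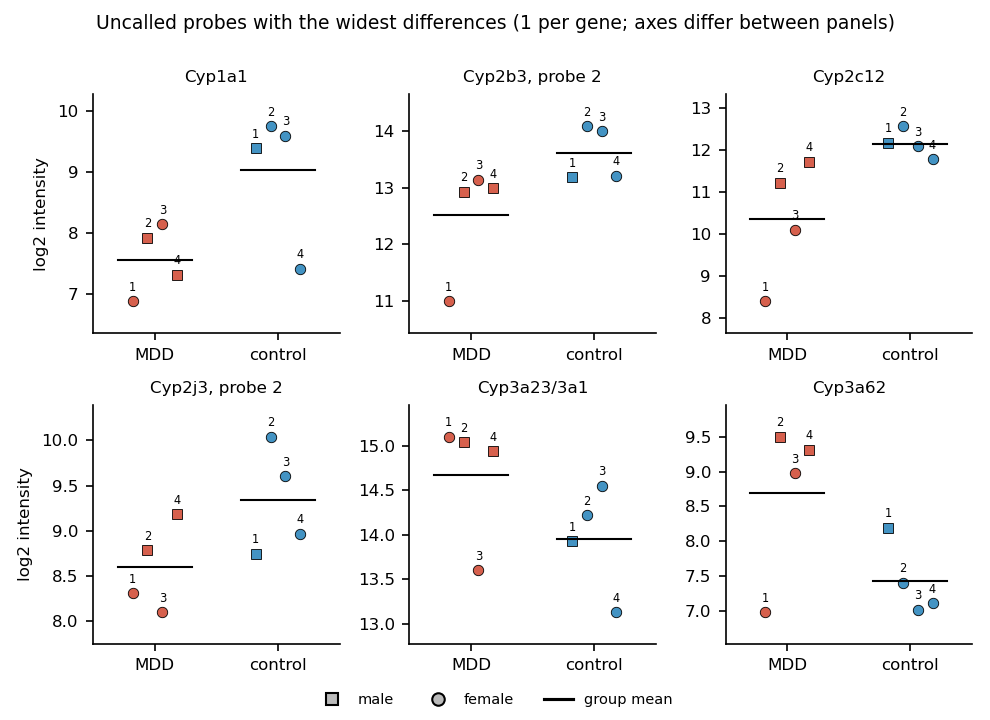
Normalized log2 intensity of 6 uncalled probes, those with the widest differences (1 per gene), in each MDD liver (left of each panel) and each control liver (right), with replicate numbers, squares for males, circles for females and a line at the group mean. One liver stands off its group in several panels, as control liver 4 does in Cyp1a1 and MDD liver 1 in Cyp2b3 and Cyp3a62. In Cyp2c12 the MDD livers are spread out, with MDD liver 1 the lowest and MDD liver 3 next.

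Sex was tested because several of these genes are sex-biased in adult rats, with 3 males (2 MDD, 1 control) and 5 females. No member probe was called for sex (0 of 43), and 0% of all probes were, with a smallest limma adjusted p of 0.333 over all probes. At an unadjusted p under 0.05 there were 7 of 43 member probes, all higher in males, against 2.74% of all probes tested for sex. They were both Cyp2b2 probes, Cyp2c12, Cyp3a18, Cyp3a2, Cyp3a62 and probe 2 of Cyp3a73. Male minus female, with diet in the fit, probe 2 of Cyp2b2 differed by 0.64 ± 0.11, Cyp3a18 by 0.90 ± 0.20, Cyp3a62 by 1.17 ± 0.35 and Cyp2c12 by 1.31 ± 0.45. The Cyp2c12 value runs against the female bias of adults, and its 2 lowest livers were the MDD females. In the control group the Cyp2c12 value of the male (12.17) lay within those of the females (11.78 to 12.57). MDD liver 1, a female, was the lowest of all livers in Cyp2c12 and Cyp3a62, and the sex differences are not given without it.

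With sex in the fit 0 member probes were called higher and 3 lower for diet, while 5.37% of all probes were called for diet in that fit. The 3 were both tested Cyp2c7 probes and Cyp2c12 (-2.115, limma adjusted p = 0.0263). The other probes called without sex in the fit lost their calls, with limma adjusted p from 0.0549 (Cyp2c22) to 0.101 (probe 1 of Cyp2j4). At an unadjusted p under 0.05 the fit with sex gave 7 and 16 member probes. The difference between diets was also compared between the sexes. The diet by sex term called 0 of 16711 probes in limma (smallest adjusted p = 0.0765). At an unadjusted p under 0.05 there were 10 of 43 member probes, with 8.9% of all probes. Since a single control male enters this term, it rests on that animal.

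The partners and regulators of P450 were read from lists of named genes. Por, the oxidoreductase that feeds every microsomal P450, read 11.15, 12.24, 11.58 and 12.37 in MDD livers, against 11.54, 11.67, 11.53 and 11.94 in control livers (0.16 ± 0.19, limma adjusted p = 0.618). Of 7 electron donors and haem genes 2 fell and 0 rose, with 11% of all probes called. The 2 were Cyb5a, cytochrome b5, by 0.50 (limma adjusted p = 0.0434) and Cyb5r3, its reductase, by 0.58 (limma adjusted p = 0.0213). Alas1, the first enzyme of haem synthesis, differed by -0.11.

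Of 21 receptors and transcription factors tested 1 rose and 3 fell, with 11% of all probes called. The main P450 regulators were not called: Nr1i2, which encodes PXR, differed by -0.02 ± 0.08 (limma adjusted p = 0.904), Nr1i3, which encodes CAR, by 0.01 ± 0.10 (limma adjusted p = 0.952), Ahr by 0.07 ± 0.16 (limma adjusted p = 0.823) and Hnf4a by -0.16 ± 0.10 (limma adjusted p = 0.332). Ghr, the growth hormone receptor, fell by 0.98 ± 0.17 (limma adjusted p = 0.00927), reading 10.76, 11.60, 11.82 and 11.50 in MDD livers, against 12.17, 12.61, 12.30 and 12.53 in control livers. Its 2 other probes differed by -0.39 and -0.44. Stat5a, a signal carrier of that receptor, fell by 0.45, while Stat5b differed by -0.08 and was not called (limma adjusted p = 0.556). The bile acid receptor gene Nr1h4 fell by 0.82, and its other tested probe differed by -0.34. Dbp, a clock-controlled factor, rose by 1.38.

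**Figure D5:**
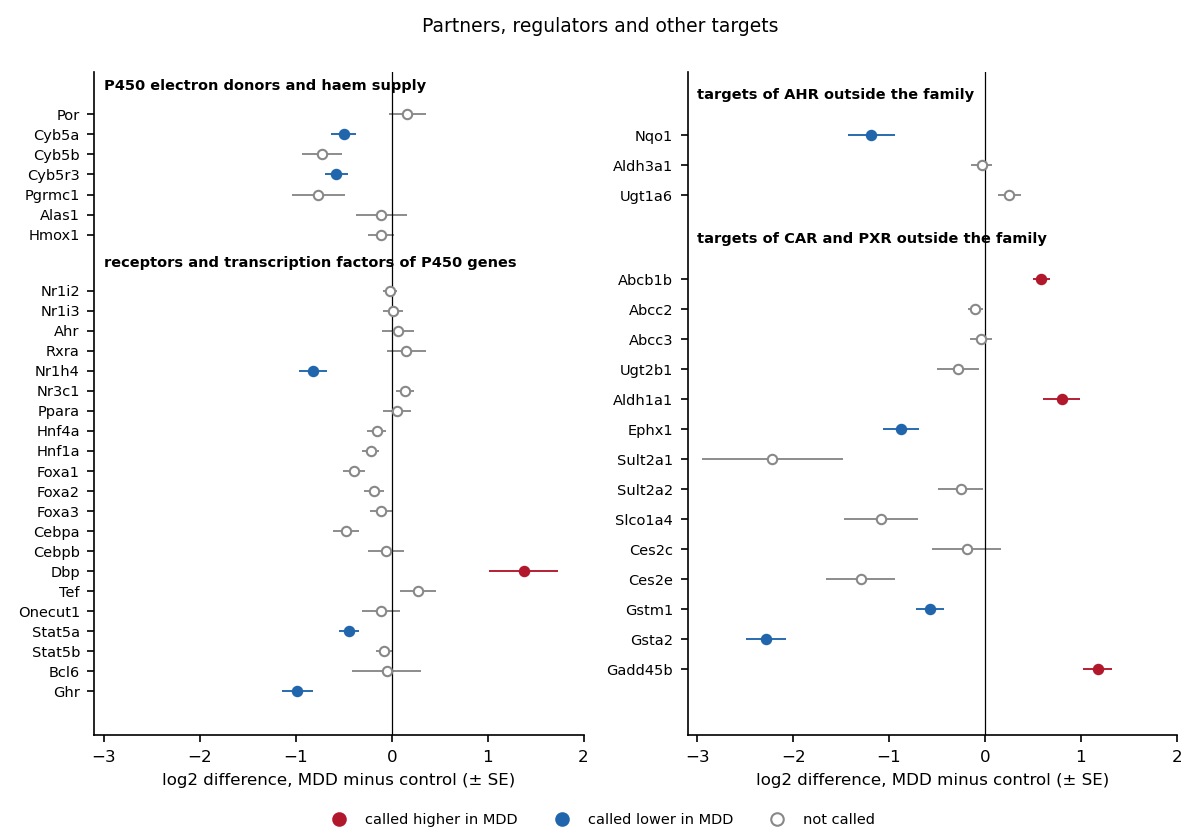
Log2 difference, MDD minus control (points), with the SE of the fit (bars, n = 4 livers in each group), of the brightest tested probe of each partner, regulator and other target gene. Filled points are called, among them Ghr, Stat5a and Nr1h4 lower and Dbp higher, while Nr1i2, Nr1i3 and Ahr lie close to 0.

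Other genes under the same receptors did not move as one. Among AHR targets outside the family 1 of 3 tested fell, Nqo1 by 1.18 ± 0.25 (limma adjusted p = 0.0208), while Aldh3a1 differed by -0.04 and Ugt1a6 by 0.26 in a fit that lacked array 4 for its probe. The summed level of the AHR targets with values in all livers was 8.72 to 9.69 in MDD livers and 9.70 to 10.44 in control livers. Among CAR and PXR targets 3 of 14 rose and 3 fell, with 11% of all probes called. The 8 uncalled targets all read lower in MDD livers, with Sult2a1 at -2.22, Ces2e at -1.30 and Slco1a4 at -1.08. The median of the list was -0.27, and its summed level was 16.01 to 16.50 in MDD livers and 17.01 to 17.61 in control livers. Abcb1b rose by 0.59, Aldh1a1 by 0.80 and Gadd45b by 1.18, and Ephx1 fell by 0.87, Gstm1 by 0.57 and Gsta2 by 2.28.

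Markers of the position of hepatocytes along the lobule were read because several P450 genes are highest around the central vein. Of 7 pericentral markers tested 1 rose and 1 fell, Slc1a2 by 0.69 and Glul, glutamine synthetase, by 0.70. Of 7 periportal markers 2 rose, Ass1 by 0.77 and Sds by 2.14, with 11% of all probes called. The summed pericentral level was 15.12 to 15.30 in MDD livers and 14.84 to 15.26 in control livers. A sum mostly follows its brightest genes, here Oat and Slc13a3, and Glul read below both in every liver. The summed periportal level was 16.144 to 17.085 in MDD livers and 16.006 to 16.443 in control livers. The part of lobular position in the P450 differences was not tested.

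The other P450 families of the array served as a comparison. Of 38 probes 25 were tested, 4 rose and 7 fell, and their median difference was -0.03 with a median size of 0.29. Their calls were 4 of 25 higher and 7 of 25 lower, against 3 of 43 and 7 of 43 probes in families 1 to 3. Over all probes tested 4.56% were called higher and 6.47% lower. The difference between these counts was not tested.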

How the data were processed

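Liver RNA of 8 rats was hybridised to 4 two-colour Agilent arrays, an MDD and a control liver on each. Which livers shared an array was found from their identical deposited array data. The deposited scanner files hold spot intensity per channel and rn4 probe positions, per the file headers, which name Feature Extraction version 10.7.1.1. The authors' deposited table holds processed intensity values with no account of their normalization in the labels, and it served as an alternative. Control spots (1377) were left out of the tests.

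Mean signals were corrected for local background with normexp (offset 50), after leaving out 74 spot values whose background was over 5 times the channel median. Arrays were then normalized by loess and Aquantile and read as single channels, taken to log2. Spots of a probe were averaged. Probes with a signal well over background in fewer than 4 of 8 samples were dropped. The fit was limma 3.58.1 in R 4.3.3, fitting diet and dye, with a random block for the array (correlation 0.42, or 0.371 with sex as a further term), and Benjamini-Hochberg adjustment over 16730 probes at 0.05. The script was tested on simulated data.

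Values of all 8 livers are given by a rule: per subfamily up to 3 called probes, the brightest probe, and the smallest p where none was called, plus a fixed set of well-known members and partners; members shown beyond it, such as Cyp2d5, Cyp2j3, Cyp3a23/3a1 and Ghr, were chosen after their values were seen. "At least" folds set the brighter group's mean against the lowest signal well above background on each array, or the dim probe's own value if higher. The members and gene lists were chosen with earlier results of these data known. Alternatives changed the background step, normalization, filter, block and source table, added sex, or left out a liver or an array. The number of arrays limits the precision.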

Additional observations from a re-analysis of the deposited data

Results flagged for a closer look

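A single liver stood off the other 3 of its group in 9 of 86 groups of values examined (10.5%), by a gap that chance gives in about 1 in 20 groups. The share was not counted over all probes of the array, so it is not read as a trait of these genes. MDD liver 1 was the lowest liver in 27.1% and the highest in 28.1% of all probes. Probes of 1 gene read the same livers, so the groups are not independent. MDD liver 1 was low in Cyp2d2 (11.98) and on both probes of Cyp2b3 (12.68 and 10.99). MDD liver 3 was low in Cyp3a23/3a1 (13.60) and high in Cyp2a3 (8.33). MDD liver 2 was high on probe 1 of Cyp2c79 (7.50), and MDD liver 4 was low in Cyp2d1 (16.33). Among control livers, liver 4 was low in Cyp1a1 (7.41) and liver 1 in Cyp2c22 (9.28). Cyp2d2 and Cyp2c22 were called, and the other probes were not.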

How the results depend on the processing

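The main fit gave 3 member probes higher and 7 lower, with 11% of all probes called. Keeping the spots with high background gave 2 higher and 2 lower (6.23% of all probes). Agilent processed signals gave 2 higher and 3 lower (7.33%), and within-array ratios 2 higher and 2 lower (3.1%). Loess without Aquantile gave 5 higher, 12 lower and 1 called for sex (13.1% of all probes for diet). The authors' deposited table gave 5 higher and 6 lower (9.25%). Without a filter on dim probes 1 was higher and 5 were lower (5.06%). Without the array block limma called 0 higher and 0 lower (2.45%), with 4 and 11 at an unadjusted p under 0.05, and with sex in the fit 0 higher and 3 lower (5.37%). Leaving out a liver or an array gave 0 to 6 higher, 0 to 15 lower and 0 to 27 called for sex, while 1.42% to 23.3% of all probes were called for diet. The 27 came without MDD liver 1, where the array correlation was estimated at 0.939 and 7459 of all probes were called for sex. With the correlation of the 8 samples, an alternative chosen after seeing the data, the count for sex was 0 without any single liver and 2 without array 1.

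None of the 10 called probes changed direction in the 23 alternatives in which it was tested (0 sign changes). This is no further support for the calls, because called probes were picked for differences that are wide for their spread. Several alternatives also keep the same mean difference, such as those without the array block or without the filter (-1.19 for Cyp1a2 in each). Among uncalled probes, many of them near 0, 13 changed direction in 1 or more alternatives. Probe 1 of Cyp2c7 was called in 11 of 12 fits that left out a liver or an array and in 9 of 11 others. In the 12 fits that left out a liver or an array, probe 2 of Cyp2c7 was called in 9 and Cyp2c22 in 6. Cyp1a2 and probe 2 of Cyp2j4 were called in 5 of them. Cyp2d3, Cyp2f4 and probe 1 of Cyp2j4 were called in 4, and Cyp2d2 and Cyp2r1 in 3. The median difference of all probes stayed between -0.001 and 0.018. Probes near background, such as probe 2 of Cyp2c7, limit how far a fall can be read.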
